A study of Mus musculus with 16 samples.

Results

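TRBV29 is the V beta segment of the mouse T cell receptor (TCR) known in serology as Vbeta7. A cell was counted as TRBV29 when its main TRB chain, the productive, high-confidence TRB chain with the most unique molecular identifiers (UMIs), carried this segment. That held for 234 of 5760 cells with a TRB chain (4.06%), among 5908 cells with any TRA or TRB chain. Of the 234 cells, 73 had an alpha chain that joins TRAV11 to TRAJ18, 116 had another alpha chain and 45 had none. The first kind is called iNKT-type here, after invariant natural killer T cells, and the second kind conventional. Both names rest on the alpha chain alone.

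The cells were tumour-infiltrating cells of mice that carried Hepa1-6 tumours, a mouse hepatoma line placed in the liver. Both genotypes carried the Cd4-driven Cre recombinase. KO mice (CD4creMatr3fl/fl) had floxed alleles of Matr3, which encodes the nuclear RNA- and DNA-binding protein matrin 3, and CON mice (CD4creMatr3WT/WT) had wild-type alleles. Tumours were taken at day 14 or day 5, and the 4 groups were KO and CON at day 14 and KO and CON at day 5, with 2 TCR libraries each. The Cd4 promoter is active in the thymus before the CD4 and CD8 lineages part, so a floxed allele is exposed to Cre in both. The receptor files hold no Matr3 level, so deletion was not checked, and the labels give no age. The matching RNA libraries were not used here. Cells per library ranged between 474 and 1404, and UMIs of productive chains between 7683 and 31936. Since the labels do not tie the libraries of a group to separate mice, p-values measure the spread between libraries, which may be technical.

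A TCR beta chain is built by joining a V, a D and a J segment, with bases trimmed and added at the joins, and the joined stretch forms the CDR3 loop. Type I iNKT cells pair a nearly constant alpha chain with a few V beta families, and recognise lipids held by CD1d. In the mouse these families are Vbeta8, encoded by the TRBV13 genes, Vbeta7, encoded by TRBV29, and Vbeta2, encoded by TRBV1. The liver is rich in these cells. Conventional alpha beta T cells recognise peptides held by MHC molecules and carry diverse alpha chains.

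RefSeq places Trbv29 on chromosome 6, 41271403 to 41271881 in GRCm38.p6, in the cluster of V beta segments that precedes the D, J and C segments. RefSeq lists it as a V segment pseudogene, while the contig tables call 270 TRBV29 chains in cells of these libraries productive, counting second chains of a cell. The loops that a V segment encodes by itself, CDR1 and CDR2, had 1 nucleotide sequence each in all 270 chains. The bases below as V end encode Cys-Ala-Ser-Ser and then leucine, and the CDR3 of 65 of 199 TRBV29 clonotypes (32.7%) began with all of them. The clonotype sequences are those of the 3 largest TRBV29 clonotypes, with both TRB chains of the largest, and capitals mark bases that match neither the V end nor the J end.
CDR1, TRBV29: atgagccatgaaaca
CDR2, TRBV29: tcatacgatgttgatagt
V end of the CDR3, TRBV29: tgtgctagcagttta
Largest clonotype, day 14 CON, TRBV29 with TRBJ2-3: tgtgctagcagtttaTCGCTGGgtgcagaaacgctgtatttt
Largest clonotype, its other TRB chain, TRBV13-1 with TRBJ2-5: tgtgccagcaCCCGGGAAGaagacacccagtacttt
Next clonotype, day 14 CON, TRBV29 with TRBJ1-2: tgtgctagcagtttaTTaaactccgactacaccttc
Clonotype after that, day 14 KO, TRBV29 with TRBJ2-7: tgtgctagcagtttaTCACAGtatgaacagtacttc

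TRBV29 made up a smaller share of TRB cells at day 14 than at day 5. At day 14 it was 2.75% and 2.34% of TRB cells in the KO libraries and 3.91% and 2.76% in the CON libraries. At day 5 it was 4.36% and 4.11% in the KO libraries and 6.47% and 6.26% in the CON libraries. The 4 libraries of day 14 thus lay below the 4 of day 5, with means over 4 libraries a day of 2.94% ± 0.673 (SD) at day 14 and 5.30% ± 1.24 at day 5. Among the 98 V and J segments of both chains that were tested, 9.18% lay lower at day 14 with no overlap between the days. The log2 fold change of the TRBV29 share was -0.83 ± 0.27 (SE) and did not pass the threshold of 0.05 (edgeR quasi-likelihood test, adjusted p = 0.0811, unadjusted p = 0.0111). In this comparison 10 of the 98 segments, or 10.2%, passed. TRBV29 ranked 10th to 14th among the 21 or 22 V beta segments seen in a day 14 library and 3rd to 9th at day 5.

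**Figure D1:**
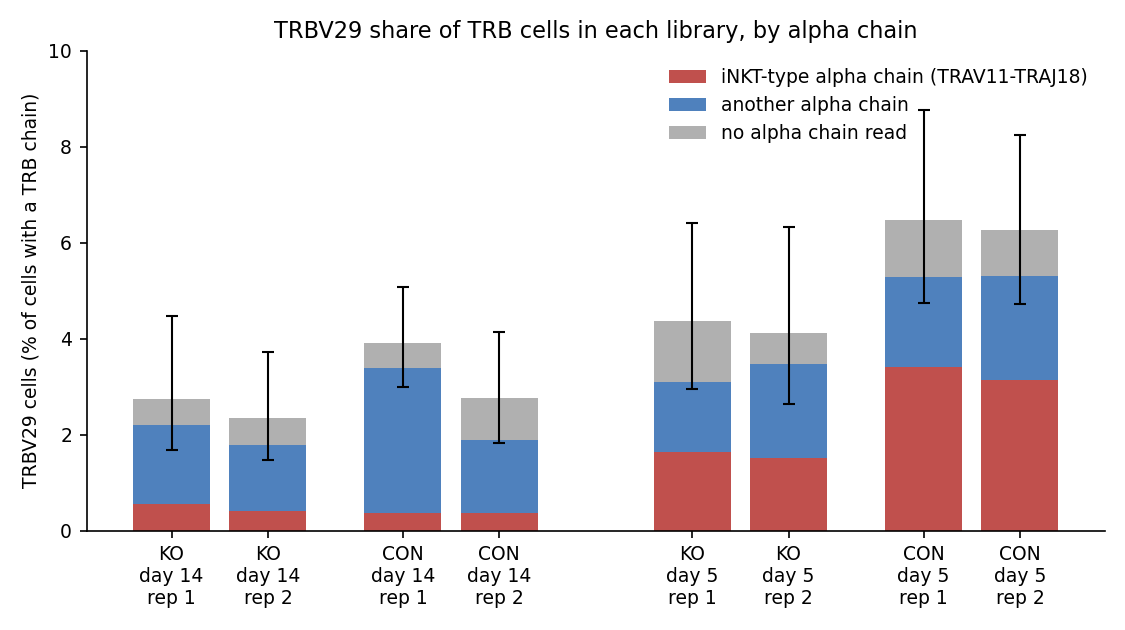
Share of TRB cells with TRBV29 in each library, in percent, stacked by the alpha chain of the cell; error bars are 95% Wilson intervals of the whole share. The part with the iNKT-type alpha chain is 0.368 to 0.549 percentage points in the day 14 libraries and 1.52 to 3.41 points in the day 5 libraries.

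The larger part of the gap between the days lay in the cells with the iNKT-type alpha chain. TRBV29 cells with that alpha chain were 0.427 ± 0.0841 percentage points of all TRB cells at day 14 and 2.42 ± 0.985 points at day 5 (here and below ± is the SD over the 4 libraries of a day). Conventional TRBV29 cells were 1.89 ± 0.763 points at day 14 and 1.86 ± 0.301 points at day 5. TRBV29 cells with no alpha chain read were 0.624 ± 0.1699 points at day 14 and 1.02 ± 0.280 points at day 5. Counting each TRB clonotype (1 CDR3 nucleotide sequence with its V and J segment) once gave TRBV29 shares of 3.99% and 3.29% for KO and 4.89% and 5.77% for CON at day 14. At day 5 these clonotype shares were 4.21% and 4.19% for KO and 6.73% and 6.75% for CON. The days then overlapped, and the log2 fold change was -0.32 (edgeR adjusted p = 0.308).

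In both days the TRBV29 share was lower in the KO libraries than in the CON libraries, with no overlap within a day, though at day 14 the gap was under 1 cell. At day 14, 15 of 546 TRB cells (2.75%) in KO replicate 1 lay next to 22 of 798 (2.76%) in CON replicate 2, so 1 more TRBV29 cell in that KO library would make the groups overlap. At day 5 the 2 KO libraries stood at 4.36% and 4.11% of TRB cells and the 2 CON libraries at 6.47% and 6.26%. Of the 98 segments, 16.3% were lower in KO at day 5 without overlap, and 15.3% at day 14. Within a day, a pair of groups this small thus often parts in this way. The share of segments lower in KO in both days was not counted. The log2 fold change, KO over CON, was -0.58 ± 0.40 at day 5 (SE, edgeR adjusted p = 0.979) and -0.40 ± 0.40 at day 14 (adjusted p = 0.627). Without day 14 CON replicate 1, the day 14 value was -0.12 (edgeR adjusted p = 0.847). Over both days, in a fit of all 8 libraries that also holds the day, the log2 fold change was -0.49 ± 0.27 (adjusted p = 0.606, unadjusted p = 0.0958). The test of the difference between the 2 genotype effects gave 0.19 ± 0.57 (adjusted p = 0.916). In all 4 of these comparisons 0 of 98 segments passed, which is 0%, in edgeR and in DESeq2. The number with an unadjusted p under 0.05 in edgeR was 0 at day 5, 11 at day 14, 5 over both days and 4 for the difference. With each clonotype counted once, the KO over CON log2 fold change over both days was -0.63 (edgeR adjusted p = 0.174, unadjusted p = 0.00595).

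TRBV29 was more common among iNKT-type cells than among conventional cells in each of the 8 libraries. At day 14 it was carried by 16.7% and 9.68% of iNKT-type cells in KO and by 12.8% and 13.0% in CON, against 1.96% and 1.85% of conventional cells in KO and 3.57% and 1.78% in CON. At day 5 it was carried by 7.26% and 6.09% of iNKT-type cells in KO and by 14.6% and 14.6% in CON, against 2.74% and 3.45% of conventional cells in KO and 3.49% and 3.56% in CON. The ratio of the shares ran from 1.77 in a day 5 KO library to 8.52 in a day 14 KO library. In a fit with the library as a block the log2 fold change, iNKT-type over conventional, was 1.92 ± 0.31 in edgeR (SE, adjusted p = 2.29e-08). Of the 33 beta V and J segments in this fit 23 passed, or 69.7%, and 6 of them, or 18.2%, were higher in iNKT-type cells. TRBV29 was 1 of these 6.

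**Figure D2:**
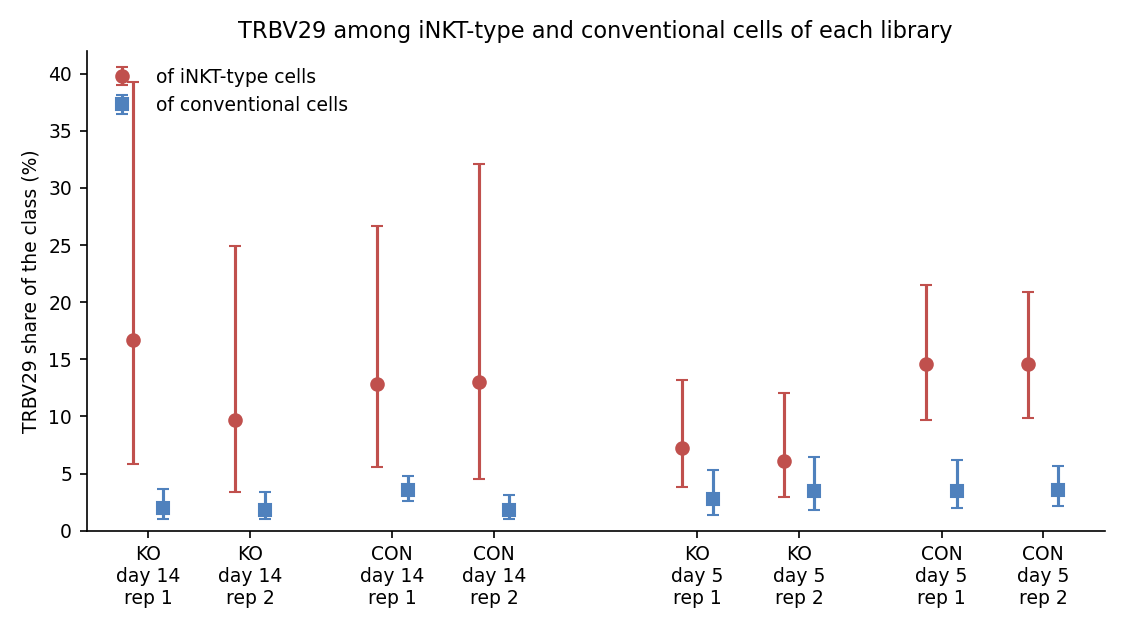
TRBV29 share of iNKT-type cells (circles) and of conventional cells (squares) in each library, in percent, with 95% Wilson intervals. In each of the 8 libraries the circle lies above the square, and the intervals of the iNKT-type shares at day 14 rest on 18 to 39 cells.

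The other V beta segments known for iNKT cells differed in how far they leaned to that class. The contig tables give the joint name TRBV12-2+TRBV13-2 to some chains and the single names TRBV12-2 and TRBV13-2 to others. The joint name was used by 46.0% ± 14.8 of iNKT-type cells and 4.72% ± 0.793 of conventional cells at day 14. At day 5 it was used by 51.6% ± 4.797 of iNKT-type cells and 7.91% ± 0.994 of conventional cells. Its log2 fold change was 2.94 ± 0.19 (SE, adjusted p = 9.11e-37), the only one of these segments above that of TRBV29. TRBV13-2 gave 1.38 ± 0.40 (adjusted p = 0.00168) and TRBV13-1 gave 0.78 ± 0.24 (adjusted p = 0.00240). TRBV1 gave 0.34 ± 0.30 (adjusted p = 0.314) and TRBV13-3 gave -0.11 ± 0.35 (adjusted p = 0.768), and neither passed. All of these are edgeR values from the same fit.

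The class difference of TRBV29 was not shown to change with time. The log2 fold change between the classes, day 14 minus day 5, was 0.62 ± 0.59 (SE, edgeR adjusted p = 0.642), and 1 of 33 segments, or 3.03%, passed. That segment was TRBV13-1, at -1.61 ± 0.43 (adjusted p = 0.00782), and DESeq2 called none. Among iNKT-type cells alone TRBV29 was 13.1% ± 2.86 at day 14 and 10.6% ± 4.59 at day 5, and the log2 fold change in edgeR was 0.19 ± 0.49 (SE, adjusted p = 0.840). None of the 16 segments tested in these cells passed (0%), and 0 had an unadjusted p under 0.05 in edgeR, with 0 passing in DESeq2.

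Among conventional cells TRBV29 was 2.29% ± 0.854 at day 14 and 3.31% ± 0.382 at day 5. In edgeR the log2 fold change came to -0.51 ± 0.28 (SE, adjusted p = 0.226), in a comparison where 4 of 33 segments, or 12.1%, passed, all of them lower at day 14. With TMM factors 3 passed, 1 higher and 2 lower. Day 14 CON replicate 1 stood apart at 3.57%, beside 1.78% to 1.96% in the other 3 day 14 libraries. Without it the log2 fold change was -0.82 (adjusted p = 0.04996), just inside the threshold. With each clonotype counted once and all 8 libraries kept it was 0.03 (adjusted p = 0.961). The clonotype shares behind that value were 2.50% to 4.57% at day 14 and 2.81% to 3.83% at day 5.

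Between the genotypes, the larger gap in TRBV29 lay among iNKT-type cells at day 5. There 9 of 124 and 7 of 115 iNKT-type cells carried it in KO, and 20 of 137 and 23 of 158 in CON. At day 14 the counts were 3 of 18 and 3 of 31 in KO and 5 of 39 and 3 of 23 in CON, and the groups overlapped. Over both days the log2 fold change, KO over CON, was -0.88 ± 0.41 (SE, edgeR adjusted p = 0.576, unadjusted p = 0.0360). TRBV29 was the 1 segment of 16 with an unadjusted p under 0.05 in these cells, and 0 of 16 passed after adjustment (0%) in edgeR and in DESeq2. At day 5, 18.8% of the 16 segments were lower in KO with no overlap. Among conventional cells the KO over CON log2 fold change of TRBV29 was -0.37 ± 0.28 (adjusted p = 0.594), and 0 of 33 segments passed (0%). In that comparison 4 segments had an unadjusted p under 0.05 in edgeR, and DESeq2 called 0. Without day 14 CON replicate 1 the TRBV29 value was -0.08 (edgeR adjusted p = 0.946). Whether the genotype difference itself differs between iNKT-type and conventional cells was not tested.

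The iNKT-type share of the TRBV29 cells was lower at day 14 than at day 5, as was that of all cells. Of TRBV29 cells with an alpha chain, 25.0% and 23.1% in KO and 10.9% and 20% in CON were iNKT-type at day 14. At day 5 the iNKT-type share was 52.9% and 43.8% in KO and 64.5% and 59.0% in CON. Of all cells with both chains, 3.28% to 5.42% were iNKT-type at day 14 and 26% to 30.6% at day 5. The difference for TRBV29 cells, day 14 minus day 5, was -35.3 percentage points, with all 4 libraries of day 14 below the 4 of day 5 (two-sided exact permutation test within genotype, p = 0.0556, the smallest that 36 relabelings allow). KO minus CON was -2.40 points (p = 0.722 in the same exact test). Shares are of cells read, so fewer iNKT-type cells and more conventional cells cannot be told apart.

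The alpha chain beside TRBV29 in iNKT-type cells was nearly constant. Of the 73 cells, 69 (94.5%) had the most frequent CDR3 residues of the invariant chain, and 93.2% of iNKT-type cells with another V beta did. The alpha chain of mucosal-associated invariant T cells, TRAV1 joined to TRAJ33, was found in 0 of 189 TRBV29 cells with an alpha chain, which allows a share of up to 1.59%.

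TRBJ partners of TRBV29 were spread over 12 segments, counted here as clonotypes so that an expanded clone weighs no more than a single cell. TRBJ2-7 was the commonest, with 40 of 199 TRBV29 clonotypes (20.1%) and 807 of 3677 others (21.9%). TRBJ2-3 followed with 27 TRBV29 clonotypes (13.6%) and 8.84% of others, and TRBJ1-1 with 25 (12.6%) and 10.9% of others. Between TRBV29 and other clonotypes 0 of 12 TRBJ segments passed (0%) in edgeR and in DESeq2, and 2 had an unadjusted p under 0.05 in edgeR. The 4 smallest p-values belonged to TRBJ2-3 (log2 fold change 0.62 ± 0.28, SE), TRBJ1-5 (1.09 ± 0.54), TRBJ2-1 (-0.68 ± 0.32) and TRBJ2-4 (-0.58 ± 0.35), with edgeR adjusted p of 0.239 for the first 3 and 0.438 for TRBJ2-4.

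Over all V beta segments together, TRBV29 included, TRBJ1-5 was higher in iNKT-type than in conventional cells (edgeR log2 fold change 1.85 ± 0.34, SE, adjusted p = 6.12e-07). With TRBV29 it was used by 11 of 73 iNKT-type TRBV29 clonotypes (15.1%), 10 of them at day 5, and by 2 of 89 conventional TRBV29 clonotypes (2.25%), both at day 14. TRBJ2-7 leaned the other way, with 7 of 73 iNKT-type (9.59%) and 22 of 89 conventional TRBV29 clonotypes (24.7%). In the fit with the library as a block TRBJ1-5 had an edgeR log2 fold change, iNKT-type over conventional, of 2.22 ± 1.00 (SE, adjusted p = 0.213) and TRBJ2-7 of -1.10 ± 0.87 (adjusted p = 0.670). TRBJ2-1 gave 1.01 ± 0.94 (adjusted p = 0.670) and TRBJ2-5 gave -0.43 ± 0.87 (adjusted p = 0.982). None of 7 segments passed (0%), 1 had an unadjusted p under 0.05 in edgeR, and DESeq2 could not be fitted. Without day 5 KO replicate 2, 1 of the segments tested passed, and that was TRBJ2-7 (edgeR adjusted p = 0.0219).

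The TRBV29 clonotypes used J segments of both clusters that follow the V segments, 76 of the TRBJ1 cluster (38.2%) and 123 of the TRBJ2 cluster (61.8%). Among other clonotypes the TRBJ2 cluster took 67.0%. A D segment was named by the authors' annotation in 37 of the 199 TRBV29 clonotypes, 31 of them TRBD1 and 6 TRBD2. All 6 with TRBD2 used a TRBJ2 segment, and TRBD2 lies after the TRBJ1 cluster on the chromosome.

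Conventional TRBV29 clonotypes drew on a broad set of alpha chains, 28 TRAV and 31 TRAJ segments in 89 clonotypes. TRAJ30 was used by 9 of the 89 (10.1%), in 7 libraries, and by 3.11% of 2477 other conventional clonotypes, and its log2 fold change in edgeR was 1.69 ± 0.59 (SE, adjusted p = 0.282). TRAJ27 was used by 1 of 89 (1.12%) and 6.98% of others, with a log2 fold change of -2.58 ± 0.91 (adjusted p = 0.282). TRAV7-4 and TRAV5-4 were found in 0 of 89, and in 3.27% and 3.43% of others. A count of 0 in 89 allows a share of up to 3.37%, which is above the share of TRAV7-4 and just below that of TRAV5-4 among others. Of 74 TRA segments 0 passed (0%) in edgeR and in DESeq2, and 10 had an unadjusted p under 0.05 in edgeR. Multiplying library sizes by TMM factors, which assume that most segments do not move, turned this into 43 calls, all of them lower beside TRBV29, while the median log2 fold change of all 74 segments moved by -1.68.

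CDR3 loops of TRBV29 chains were longer beside the invariant alpha chain than beside other alpha chains in 7 of 8 libraries. Mean lengths over clonotypes were 13.7 and 14.3 residues (iNKT-type) against 14.0 and 13.0 (conventional) in day 14 KO, and 13.8 and 14.7 against 13.7 and 12.2 in day 14 CON. At day 5 they were 13.8 and 14.3 against 13.6 and 14.2 in KO, and 14.3 and 14.3 against 13.5 and 13.3 in CON. The day 14 iNKT-type means rest on 3 and 3 clonotypes in KO and 5 and 3 in CON. The largest difference, 2.48 residues, was in day 14 CON replicate 2, with 3 iNKT-type clonotypes. The mean difference was 0.70 ± 0.91 residues (SD, n = 8 libraries; two-sided exact permutation test with the classes exchanged within libraries, p = 0.0625). Averaged over cells in place of clonotypes it was 0.78 residues (p = 0.00781, the smallest that this exact test can give), without possible doublets 0.61 (p = 0.0234), and without day 14 KO replicate 1 it was 0.85 (p = 0.0156), so the call depends on these choices. In the pooled clonotypes, 23 and 24 of 73 iNKT-type CDR3s had 14 and 15 residues, while 24 of 86 conventional CDR3s had 12. The conventional count is 86 here and 89 above, and the library means use all 89. Here each of the 199 TRBV29 clonotypes stands in 1 class, 73 iNKT-type, 86 conventional and 40 with no alpha chain. The conventional clonotypes missing from the 86 are therefore among those placed with no alpha chain.

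**Figure D3:**
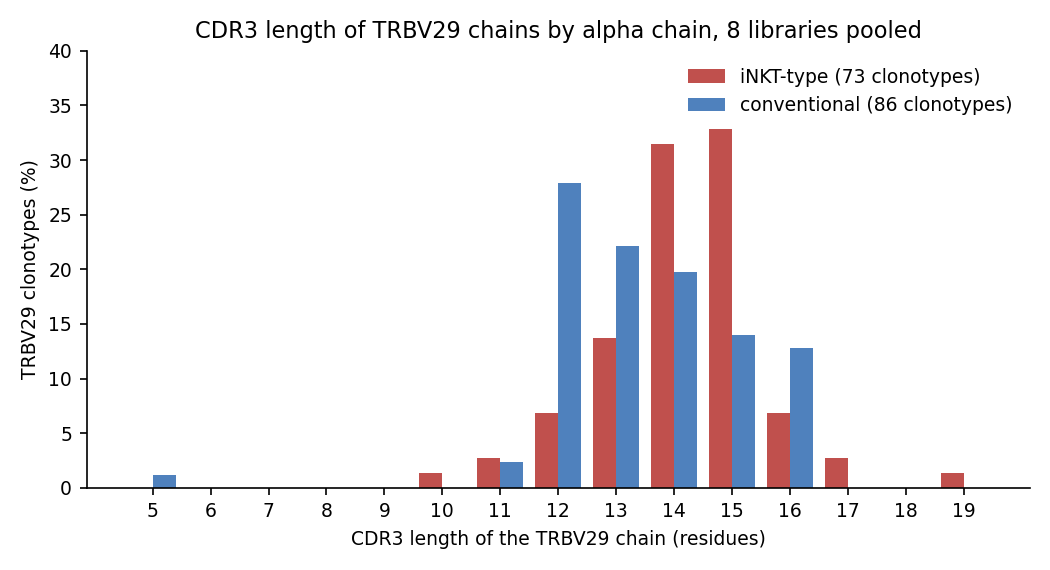
CDR3 length of TRBV29 chains in residues, as percent of the 73 iNKT-type and the 86 conventional TRBV29 clonotypes of the 8 libraries. The iNKT-type lengths peak at 14 and 15 residues and the conventional ones at 12, with 1 conventional CDR3 of 5 residues.

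The V end was then compared in the same clonotypes. The full V end shown above was kept by 15 of 73 iNKT-type TRBV29 clonotypes (20.5%) and 34 of 86 conventional ones (39.5%). The leucine that follows Cys-Ala-Ser-Ser was present in 20 of 73 iNKT-type (27.4%) and 43 of 86 conventional clonotypes (50%). Bases matching neither the V nor the J end numbered 10.9 ± 3.44 in iNKT-type and 8.92 ± 4.097 in conventional CDR3s (SD over clonotypes). The leucine share was higher in conventional than in iNKT-type clonotypes in 7 of 8 libraries. These values were looked at after the lengths were known and were not tested.

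Against other V beta segments, all alpha chains together, TRBV29 CDR3s were shorter in 7 of 8 libraries, with a mean of 13.7 ± 0.362 residues for TRBV29 and 13.9 ± 0.0591 for others (SD, n = 8). The difference was -0.25 residues (two-sided exact permutation test within libraries, p = 0.0391, adjusted p = 0.0781 over 5 measures). It was -0.28 (adjusted p = 0.0391) when a cell with a TRBV29 chain of any rank counted as TRBV29. The share of paired cells with 2 or more TRA chains was 5.63% ± 5.10 for TRBV29 and 11.2% ± 4.95 for others, lower in 6 of 8 libraries (exact permutation test, p = 0.0469, adjusted p = 0.0781). The share of TRB cells with no alpha chain was 20.9% ± 6.75 for TRBV29 and 17.7% ± 4.98 for others (exact permutation test, adjusted p = 0.381). The median TRB UMIs of a library were 7 to 17 per TRBV29 cell and 8 to 12 per other cell, a mean log2 difference of 0.12 (exact permutation test, adjusted p = 0.477).

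TRBV29 cells with the invariant alpha chain were all single. The 73 iNKT-type TRBV29 cells were 73 clonotypes, 14 at day 14 and 59 at day 5, and none was seen in more than 1 cell. All iNKT-type cells together were 111 cells in 107 clonotypes at day 14 and 534 cells in 526 clonotypes at day 5. Of the conventional TRBV29 clonotypes, 9 held 2 or more cells, and 8 of these were in day 14 libraries. Expanded clonotypes, those with 2 or more cells, held 44.4% and 40% of conventional TRBV29 cells in KO and 58.5% and 16.7% in CON at day 14. At day 5 they held none in KO, and 0% and 12.5% in CON. The difference, day 14 minus day 5, was 36.8 percentage points, and all 4 libraries of day 14 lay above the 4 of day 5 (two-sided exact permutation test, p = 0.0556, the smallest this design allows). KO minus CON was -0.81 points (exact permutation test, p = 1), and its sign changed when some single libraries were left out.

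Within the conventional cells of a library, a smaller share of TRBV29 cells than of other cells belonged to expanded clonotypes. The other cells pool all other V beta segments, and no single segment with as few cells was compared. Whether the lower share is particular to TRBV29 was therefore not tested. At day 14 the share was 44.4% and 40% for TRBV29 against 57.4% and 53.3% for others in KO, and 58.5% and 16.7% against 67.8% and 68.4% in CON. At day 5 it was 0% and 0% against 4.58% and 3.57% in KO, and 0% and 12.5% against 6.58% and 17.7% in CON. The day 5 shares rest on 8 and 9 conventional TRBV29 cells in KO and 11 and 16 in CON. In the libraries at 0%, the share of the others would amount to less than a single TRBV29 cell. The direction in those libraries therefore says little, though the p-value below needs it. TRBV29 was lower in 8 of 8 libraries, by 13.4 ± 15.9 percentage points on average (SD, n = 8; two-sided exact permutation test within libraries, p = 0.00781, the smallest it can give, adjusted p = 0.0391 over 5 measures). The difference was -7.93 points without day 14 CON replicate 2, where it was 51.7 points. Counting a TRBV29 chain of any rank gave -10.3 points (adjusted p = 0.195), and the authors' clonotype identifiers gave -12.4 points (adjusted p = 0.0781), and neither passed.

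The largest TRBV29 clonotype, in day 14 CON replicate 1, carried a pair of TRB chains. Its TRBV29-TRBJ2-3 chain, printed above, was found in 34 cells of that library and in no other library. Of these cells 33 also held the TRBV13-1-TRBJ2-5 chain printed above, and 33 held an alpha chain that joins TRAV13-1 to TRAJ32. The authors' tables gave all of them 1 clonotype identifier. In the 33 cells with both, the TRBV29 chain had a median of 26 UMIs (5 to 56) and the TRBV13-1 chain 23 UMIs (4 to 85), while other cells of the library had a median of 10 TRB UMIs. The rule that the chain with the most UMIs stands for the cell therefore split the clonotype, with 15 cells counted as TRBV29 and 19 as TRBV13-1.

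**Figure D4:**
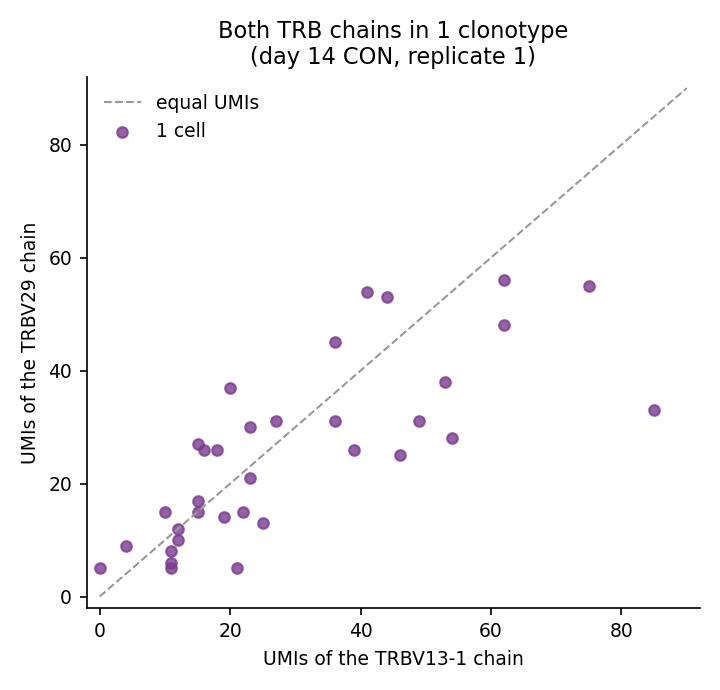
UMIs of the TRBV29 chain against UMIs of the TRBV13-1 chain in the 34 cells of the clonotype of day 14 CON replicate 1, with the line of equal UMIs. The TRBV29 chain had more UMIs than the TRBV13-1 chain in 12 of the 33 cells with both, fewer in 19 and as many in 2.

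Joined, the clonotype held 2.51% of the TRB cells of its library and ranked 6th there. Without it TRBV29 was 38 cells of that library (2.87% of its TRB cells, against 3.91% with it), close to the 2.34% to 2.76% of the other day 14 libraries. The expanded share of conventional TRBV29 cells there was then 10 of 27 (37.0%, against 58.5% with it). The same TRBV29 chain was also found in 29 barcodes that the authors did not call cells.

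TRBV29 chains were often found in cells with a second TRB chain outside this clonotype too. Of 236 other TRBV29 chains 33 (14.0%) were in cells with 2 or more TRB chains, the highest share among the 21 V beta segments with at least 40 chains. TRBV15 followed with 12 of 108 (11.1%) and TRBV16 with 26 of 262 (9.92%), and all chains other than TRBV29 together gave 4.39%. By library the TRBV29 share was 6.67% and 11.1% in KO and 10.0% and 8.33% in CON at day 14, and 30% and 23.8% in KO and 12.5% and 10.4% in CON at day 5. The share of other chains was 2.55% to 6.32%, below that of TRBV29 in each of the 8 libraries.

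These cells rest on few counts, 1 to 9 TRBV29 chains per library, and the measure was chosen after its values were seen, so no test is given. Of 140 cells with 2 or more TRB chains, 33 (23.6%) held a TRBV29 chain. Counted by chain, 4.02% of all TRB chains were TRBV29. The first is a share of cells, each with 2 or more chains that could be TRBV29, so it is not comparable with the second. The like comparison is that of chains, 14.0% for TRBV29 and 4.39% for others. The partner chain came from 14 different V beta segments, led by TRBV12-2+TRBV13-2 and TRBV16 with 5 cells each. The weaker chain of such a cell had a median of 9 UMIs where TRBV29 was present and 6 elsewhere, and the stronger chain 14 UMIs in both. A droplet with 2 T cells gives the same picture as 1 cell with 2 chains, and the part of such droplets was not tested. Among the 36 cells in which TRBV29 was not the main chain, 19 were of the clonotype above, and the other 17 held 17 different pairs of TRB chains.

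**Figure D5:**
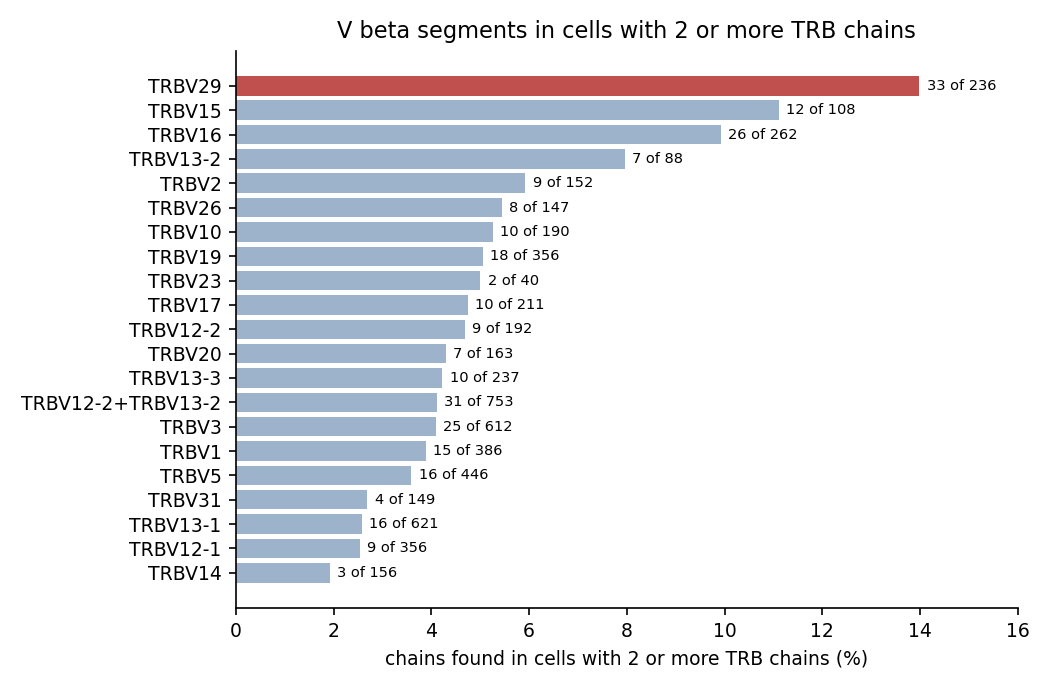
Share of the chains of each V beta segment, in percent, that were found in cells with 2 or more TRB chains, in the 8 libraries without the large clonotype with a pair of TRB chains; labels give the counts. TRBV29 stands at 14.0% and the other 20 segments at 1.92% to 11.1%.

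Sharing of TRBV29 receptors between libraries was rare. The shared ones, 1 conventional and 1 iNKT-type, had the same CDR3 residues in both chains. Of 197 TRBV29 CDR3 residue sequences 2 were found in more than 1 library (1.02%, against 1.19% for other V beta segments). The first was in day 14 KO replicate 2 (2 cells) and day 14 CON replicate 2 (1 cell), with the same TRBV29-TRBJ2-7 nucleotides. Both had an alpha chain of TRAV6-6 and TRAJ22 with the same 16 CDR3 residues, encoded by nucleotides that differ at 2 bases. Another library, day 14 CON replicate 1, had 1 cell with TRAV6-6-TRAJ22 and TRBV29-TRBJ2-7, whose beta CDR3 had the same length of 12 residues and differed at 1 base and 1 residue, and whose alpha CDR3 had 15 residues. In the alpha sequences below, capitals mark the bases that differ between the first 2 libraries, and in the last beta sequence the base that differs from the shared one.
Beta, day 14 KO replicate 2 and day 14 CON replicate 2: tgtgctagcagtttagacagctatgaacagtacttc
Alpha, day 14 KO replicate 2: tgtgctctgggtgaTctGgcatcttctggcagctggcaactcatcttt
Alpha, day 14 CON replicate 2: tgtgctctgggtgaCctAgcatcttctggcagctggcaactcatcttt
Beta, day 14 CON replicate 1: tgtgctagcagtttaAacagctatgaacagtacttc
Alpha, day 14 CON replicate 1: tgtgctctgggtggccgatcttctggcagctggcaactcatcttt

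Of 2543 conventional receptors defined by the residues of both CDR3s and their segments, 14 were in 2 or more libraries, and this was the 1 with TRBV29. TRAV6-6 with TRAJ22 was the alpha chain of 13 conventional cells with both chains, and 4 of these carried TRBV29. Those 4 are the cells described above. Because the alpha chain was picked from the shared receptor, the count is no measure of a pairing preference. The only iNKT-type receptor found in 2 or more libraries also carried TRBV29, as did 73 of all 645 iNKT-type cells. A single receptor is no measure of a link between TRBV29 and sharing. That receptor was in both CON libraries of day 5, with TRBJ1-5 and the same CDR3 residues. Its beta nucleotides differ at 5 bases, shown with capitals for bases matching neither the V nor the J end.
Beta, iNKT-type, day 5 CON replicate 1: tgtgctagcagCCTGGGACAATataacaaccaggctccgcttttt
Beta, iNKT-type, day 5 CON replicate 2: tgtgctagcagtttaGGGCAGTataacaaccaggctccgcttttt

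Across the 8 libraries the V beta segments whose share moved most like that of TRBV29 were TRBV31 (Pearson r = 0.81 of log2 shares), TRBV13-2 (r = 0.79) and TRBV19 (r = 0.75), of 19 segments with at least 40 cells. The segment least like it was TRBV3 (r = -0.81). Shares within a library sum to 1 whole, the 8 libraries fall into 2 days, and 4 libraries a day are too few for a value within a day, so these are descriptions only.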

How the data were processed

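TCR contig tables of 8 libraries were used. The submitters' processing notes name Seurat 4.0.0, R 4.1.2, Cell Ranger 3.1.0 and CASAVA 1.8, without roles, and build GRCm38 (mm10). Each contig has deposited UMI and read counts, whole numbers that the authors did not normalize, per the file headers. The deposited contig length (other values) was not tested. Read numbers were all even, so UMIs ranked the chains.

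Barcodes called cells by the authors and high-confidence productive contigs were kept, and each cell was represented by its chain of highest UMI count. TRAV names of duplicated copies were merged (TRAV11D with TRAV11). Cells with 2 or more TRB or 3 or more TRA chains were possible doublets, 1.33% to 3.92% of a library, and were kept. No cell had a productive chain of another receptor gene. Of 5887 barcodes 21 occurred in 2 libraries, none of them with the same TRB chain.

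Cells or clonotypes per segment were tested with edgeR's quasi-likelihood F test (edgeR 4.0.16, R 4.3.3; all 8 libraries, offset the log number of cells or clonotypes, Benjamini-Hochberg over all segments, threshold 0.05). Segments needed 40 cells in the whole table, 20 cells or clonotypes in tables split by class, and 10 clonotypes among iNKT-type against conventional TRBV29. Standard errors are the fold change over the root of F. DESeq2 1.42.0, TMM factors, other filters, clonotype counting, a replicate block, UMI and doublet limits and leaving out each library were alternatives. Single values were compared with exact permutation tests. Wilson 95% intervals and the limit of 3 counts cover counting error only. The scripts were tested on simulated data. Sequences of chains are from the contig tables and positions from RefSeq. Named segments were TRBV29, the iNKT V beta list, and in partner fits those past the threshold or the 4 with the smallest p; named clonotypes were the largest and the shared ones. The segment, lists and tests were chosen with earlier results of these data known.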

Additional observations from a re-analysis of the deposited data

Results flagged for a closer look

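Of 12 sets of 4 libraries of a day looked at, 3 held a library far from the rest by Dixon's 95% criterion. By chance it flags about 1 in 20 sets of normally distributed values. These sets are shares, some of few cells, and several measures of the same libraries, so that rate is only a rough guide. The TRBV29 share of conventional cells was 3.57% in day 14 CON replicate 1, the library of the clonotype with a pair of TRB chains, and 1.78% to 1.96% in the other day 14 libraries. At day 5 that share was 2.74% in KO replicate 1, below 3.45% to 3.56% in the other 3. Expanded clonotypes held 12.5% of conventional TRBV29 cells in day 5 CON replicate 2 (2 of 16 cells) and 0% in the other day 5 libraries. With the others all at 0%, any share above 0% would have been flagged, so this flag carries no weight.

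Chains outside the main measurement carried TRBV29 too. In barcodes not called cells, TRBV29 made up 13.1% of productive TRB chains in day 5 KO replicate 2 (13 of 99). In called cells of that library it was the main TRB chain of 4.11%. The chains outside called cells, unlike those of cells, were not limited to high-confidence ones. Outside called cells TRBV29 was 0 of 116 chains in day 14 KO replicate 1, which allows up to 2.59%. It was 3.38% to 11.6% there in the other 6 libraries. In day 14 CON replicate 1, 34 of 35 TRBV29 chains outside called cells had the CDR3 of a called cell. In 36 called cells a TRBV29 chain was not the main TRB chain, 21 of them in day 14 CON replicate 1.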

How the results depend on the processing

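For 24 results, 166 alternative values and 192 with 1 library left out were computed, and 151 and 177 of these kept direction and side of the threshold. TRBV29 was higher in iNKT-type than conventional cells under each alternative run (log2 fold change 1.72 to 2.08). The TRBV29 log2 difference between days was 0.026 in conventional cells with each clonotype counted once, and -0.015 in iNKT-type cells with TMM factors. With TMM factors the change of the class difference with day was -0.084, where TMM moved the median of all segments by -0.81, and TRA calls beside TRBV29 were 43, all lower, against 0. TMM moved the median by 0.36 in conventional and -0.22 in iNKT-type cells between days. The difference of the genotype effects was -0.29 with TRBV29 by any TRB chain, an alternative added after seeing the data. KO minus CON in the iNKT-type share of TRBV29 cells was 1.49 points without possible doublets. KO minus CON in expanded TRBV29 cells was 6.70 without possible doublets, 2.31 with the authors' clonotype identifier and 0.83 by any TRB chain. The expanded share, TRBV29 minus other, was -12.4 and -10.3 with the last 2. TRBV29 minus other CDR3 length was -0.28 by any TRB chain, and iNKT-type minus conventional 0.61 without possible doublets and 0.78 over cells. Cells with 2 or more TRA chains differed by -6.86 points with chains of 2 or more UMIs. The cause of these shifts was not tested.

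With 1 library left out, the conventional day difference ran from -0.82 to -0.33, the difference of genotype effects from -0.035 to 0.46, TRBJ calls from 0 to 1, KO minus CON in expanded cells from -11.3 to 9.65 points, expanded cells of TRBV29 minus other from -14.8 to -7.93 points, CDR3 length from -0.31 to -0.16 residues against other segments and from 0.45 to 0.85 between classes. Beside the TRA and TRBJ calls above, these counts of calls moved by over 1.5 times. Between days in conventional cells, 4 became 2 with clonotypes counted once, 7 with the block or chains of 2 or more UMIs, and 0 to 9 without 1 library. Between days in all cells, 10 became 3 to 12 without 1 library, and 0 became 0 to 5 between genotypes at day 14. For the class difference with day, 1 became 4 with TMM factors, 2 without possible doublets and 0 with DESeq2 or clonotypes. For the difference of genotype effects, 0 became 1 with the block. With 7 libraries the smallest p of the within-library test is 0.0156. Deviations of same-numbered libraries correlated at -0.03 at day 5 and -0.08 at day 14, over 32 segments. With 2 libraries per group this cannot tell whether the replicate numbers pair the samples. With a replicate block TRBV29 gave -0.85 between days (adjusted p = 0.141) and -0.48 for KO against CON (adjusted p = 0.736), and the block changed no TRBV29 call. DESeq2 could not be fitted for TRBJ use of iNKT-type against conventional TRBV29. At day 14, 14 iNKT-type TRBV29 cells limit what can be detected.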
